A study of Mus musculus with 8 samples.

Results

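The SoxB genes (Sox1, Sox2, Sox3 and Sox21) and the SoxC genes (Sox4, Sox11 and Sox12) were examined in neural tube at the site of its first closure. The members were taken by gene symbol, and all 7 were found among the 26608 genes listed in each count table. Embryos of FVB mice, an inbred strain, were taken at day 8.5 of gestation, and neural tube was cut by laser from cryosections on both sides of closure site 1. Per the labels' protocols, closed tissue lay just behind the site and open tissue just in front of it. The dams were diabetic or normal, which gives 4 groups of 2 libraries: closed tissue of diabetic dams (libraries 15 and 16), open tissue of diabetic dams (13 and 14), closed tissue of normal dams (11 and 12) and open tissue of normal dams (09 and 10). No allele or transgene is named in the labels. The labels do not say how the dams became diabetic give no number of embryos or litters per library and do not say whether open and closed tissue share embryos, so the p-values given here measure nothing but the spread among libraries, which may be technical.

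Sox genes encode transcription factors with an HMG box, the domain that binds DNA. Sox1, Sox2 and Sox3 are activators that keep neural cells in the progenitor state, and Sox21 is a repressor that, in chick, counteracts them. SoxC factors activate genes of neuronal differentiation, and Sox4 and Sox11 are also required for survival of neural and mesenchymal cells in the early mouse embryo. The contrast of both families therefore sets genes of the progenitor state beside genes that act later in the neuronal lineage.

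The libraries are SAGE (serial analysis of gene expression) libraries, in which a transcript is counted through a short tag near its 3′ end. The enzyme site conventionally used is CATG, and the tag that a complete digest would leave is the stretch that follows the last CATG of a transcript. These stretches are shown because a gene's SAGE count rests mainly on its last tag, and they were read from the GENCODE M21 transcripts of build GRCm38. The counts were made on build mm9, so the tags are predictions and not the sequences the authors matched. The capitals mark the CATG, and sequences run 5′ to 3′.
Sox1: CATGacattagaatgaaattctatt
Sox2: CATGtatatatttgaactaatacca
Sox3: CATGtacctgccacctggcggggac
Sox21: CATGtattcagtttcgttttggctt
Sox4: CATGccagctaatcctgtccgtcac
Sox11: CATGtgttggacagctctctggttt
Sox12: CATGcccaacactgccttttttcca
Each of the 7 tags occurred in 1 gene only among the 579634 tags at any CATG of all transcripts, read in the transcript's own direction. The tags of 6 of the 7 genes lie in the 3′ untranslated part, between 58 bases (Sox12) and 931 bases (Sox1) from the transcript's end. The tag of Sox3 lies in its coding part, 848 bases from the end. In the same annotation Sox2 lies inside the noncoding gene Sox2ot on the same strand, and Sox2ot had 174 counts over all 8 libraries (0.529 to 6.0 CPM, where CPM is the count scaled to a library total of 1000000). Sox1 overlaps Sox1ot on its own strand, and Sox21 and Sox4 each overlap a noncoding gene on the opposite strand. Read in the transcript's own direction, the predicted last tags of Sox1, Sox2, Sox21 and Sox4 were not shared with these partners. Whether the counting used strand is not given in the sources used here, which matters for the partners on the opposite strand. Whether other tags of the partners were counted for these 4 genes was not tested.

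The 250 bases upstream of the start of Sox2 and of Sox11 are shown, since these are the most abundant members of each family and their levels across the 8 libraries were unalike. The sequences are RefSeq's, on GRCm38.p6, where 6 of the 7 members had an entry. Sox2 is on the plus strand (chr3:34649745-34649994) and Sox11 on the minus strand (chr12:27342719-27342968), and the capitals mark CCAAT or its reverse complement ATTGG.
Sox2: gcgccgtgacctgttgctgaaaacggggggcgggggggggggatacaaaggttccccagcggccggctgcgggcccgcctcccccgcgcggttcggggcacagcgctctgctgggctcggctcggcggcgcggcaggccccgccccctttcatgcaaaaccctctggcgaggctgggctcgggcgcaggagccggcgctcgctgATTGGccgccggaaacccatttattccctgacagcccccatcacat
Sox11: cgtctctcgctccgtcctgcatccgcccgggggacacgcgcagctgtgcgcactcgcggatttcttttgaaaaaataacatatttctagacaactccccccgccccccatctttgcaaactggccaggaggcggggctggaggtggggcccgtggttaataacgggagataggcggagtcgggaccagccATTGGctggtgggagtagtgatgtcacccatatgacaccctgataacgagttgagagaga
The 2 motifs searched, on both strands, were CCAAT, the letters of the CCAAT box, and ATGCAAAT, the octamer bound by POU factors, the partners of SoxB proteins. Their letters do not overlap. Sox2, Sox11, Sox1 and Sox12 each held 1 CCAAT, Sox4 held 4 and Sox21 none, against 33.85% of 32851 promoters with at least 1. ATGCAAAT was found in Sox12 only, where it is present once, and in 1.601% of all promoters. GC content was 72.0% in Sox2 and 58.0% in Sox11, with a median of 52.4% over all promoters.

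Totals per library ran from 5041586 counts (library 15) to 16655583 counts (library 13), and 9920 to 12924 genes had a count. Library 13, open tissue of diabetic dams, stood apart in Sox1, Sox2 and the markers described below, and the main SoxB values are given with and without it. Over all genes it was not the most extreme: of 11127 genes with a mean of at least 10 counts, 17.85% were highest and 10.35% lowest in library 13, beside 21.5% highest and 17.75% lowest in library 10 and 13.74% lowest in library 14. Libraries 12 and 10 held Xist, the RNA of the inactive X, at 297 and 301 CPM, with at most 4.27 CPM in the other 6, and Ddx3y, a Y-linked gene, was at most 0.882 CPM in those 2 libraries and at least 188 CPM elsewhere.

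Sox2, the SoxB factor that marks neural progenitors throughout the neural tube, was the most abundant SoxB gene in every library. In diabetic dams it had 300.5 and 527 CPM in closed tissue, against 30.9 and 418 CPM in open tissue. In normal dams it had 393 and 415 CPM in closed tissue, against 550 and 287 CPM in open tissue. Thus 7 libraries lay within a 1.91-fold range, and library 13 alone lay far below them, at 7.44% of their median. That value is 514 counts in the deepest library. Closed and open tissue overlapped, as did diabetic and normal dams.

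Sox1, a SoxB factor expressed with Sox2 in the neural plate and largely restricted to neural cells at this age, followed the same course. Closed tissue of diabetic dams had 61.5 and 109 CPM, against 15.3 and 99.6 CPM in their open tissue. Closed tissue of normal dams had 105 and 76.3 CPM, against 99.3 and 78.0 CPM in their open tissue. Library 13 was again the lowest, at 15.4% of the median of the other 7, which spanned a 1.77-fold range. Sox2 had 2.02 counts per count of Sox1 in library 13 and between 3.68 and 5.53 in the others, so the gap was wider for Sox2.

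Sox21, the repressor of the family, varied more among libraries of one group. Its level was 35.3 and 12.7 CPM in closed tissue of diabetic dams, against 8.17 and 57.2 CPM in their open tissue. The level in normal dams was 36.1 and 21.8 CPM in closed tissue, against 35.7 and 13.1 CPM in open tissue. Both the lowest and the highest level were found in open tissue of diabetic dams, and no 2 groups were separate. Library 13 stood at 23.1% of the median of the other 7, followed by libraries 16 and 10.

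Sox3, the X-linked SoxB factor, was the least abundant member, with a mean of 27.2 counts. Diabetic dams had 8.13 and 10.7 CPM in closed tissue, against 1.26 and 2.03 CPM in open tissue. Normal dams had 1.07 and 5.63 CPM in closed tissue, against 0 and 3.18 CPM in open tissue. The 0 is library 09, where 3 counts would be 0.296 CPM, the limit that a count of 0 allows for counting error. Closed and open tissue were separate in diabetic dams and overlapped in normal dams. The higher normal libraries in each tissue, 12 and 10, were those with Xist, but the highest Sox3 was in libraries 16 and 15, which lacked it.

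Sox11, the SoxC factor that is widespread in the early embryo and rises in cells leaving the progenitor state, was the most abundant of the 7 genes, and a SAGE count needs no correction for transcript length. In diabetic dams it had 2370 and 1764 CPM in closed tissue, against 2746 and 2608 CPM in open tissue. In normal dams it had 2337 and 1665 CPM in closed tissue, against 1821 and 2232 CPM in open tissue. The highest and the lowest of the 8 levels differed 1.65-fold, and library 13 was the highest, at 123% of the median of the other 7. Both open libraries of diabetic dams lay above both closed ones of diabetic dams, as in 15.3% of genes tested. They lay above both open ones of normal dams, as in 17.4% of genes. They also lay above the closed libraries of normal dams, and the share of all genes with the whole order was not computed. Library 13 was the highest for 17.85% of genes with a mean of at least 10 counts, and library 14 for 15.11%.

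Sox4, the SoxC factor closest to Sox11 in function, was spread over a wider range. In diabetic dams it had 50.8 and 40.3 CPM in closed tissue, against 52.2 and 41.1 CPM in open tissue. In normal dams it had 21.7 and 21.8 CPM in closed tissue, against 9.87 and 43.9 CPM in open tissue. All 4 libraries of diabetic dams lay above 3 of the 4 of normal dams, and library 10 overlapped them. Library 13 held the highest Sox4, at 130% of the median of the other 7.

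Sox12, a weaker activator of the SoxC family in mouse, was the most even after Sox11 over 8 libraries. Without library 13, Sox1 and Sox2 spanned narrower ranges than Sox12. Closed tissue of diabetic dams had 73.2 and 77.2 CPM, against 64.0 and 97.5 CPM in their open tissue. Closed tissue of normal dams had 48.8 and 88.0 CPM, against 58.2 and 94.2 CPM in their open tissue. The ranges of all groups crossed, and library 13 lay at 83.0% of the median of the others.

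**Figure D1:**
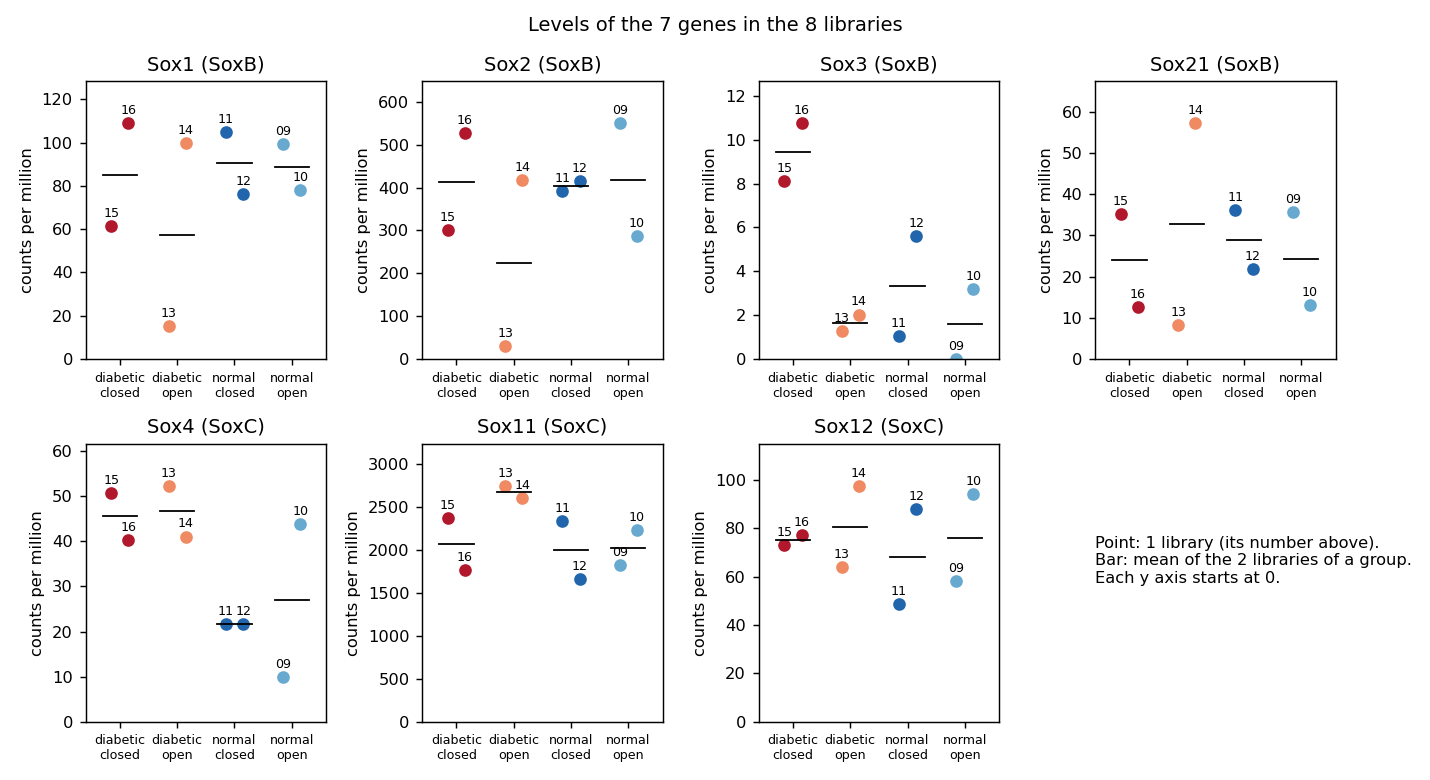
CPM (vertical axis, starting at 0) for each of the 7 genes, with 1 point per library, its number above it, and a bar at the mean of the 2 libraries of a group. Library 13 lies far below the rest for Sox1 and Sox2 (15.3 and 30.9 CPM) and at the top for Sox4 and Sox11 (52.2 and 2746 CPM).

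Library 13 was the lowest of the 8 for 3 of the 4 SoxB genes and for none of the 3 SoxC genes. It was the highest for 2 of the 3 SoxC genes, against 17.85% of genes in which it was the highest overall. In bulk tissue, fewer cells of a type and less RNA per cell cannot be told apart, so the low SoxB levels are levels of the dissected piece.

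Summed over each family, SoxB levels in diabetic dams were 405 and 660 CPM in closed tissue, against 55.5 and 577 CPM in open tissue. Summed SoxB levels in normal dams were 535 and 518 CPM in closed tissue, against 685 and 381 CPM in open tissue. Summed SoxC levels in diabetic dams were 2494 and 1881 CPM in closed tissue, against 2862 and 2747 CPM in open tissue. SoxC exceeded SoxB in every library, and the 7 genes together made up 0.229% to 0.332% of a library's counts. Summed SoxC levels in normal dams were 2407 and 1774 CPM in closed tissue, against 1889 and 2370 CPM in open tissue. Sox11 gave 93.8% to 97.1% of the SoxC counts. Sox2 gave 55.6% of the SoxB counts in library 13 and 72.5% to 80.3% in the others.

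As a share of SoxB and SoxC counts together, SoxB made up 14% and 26.0% in closed tissue of diabetic dams, against 1.90% and 17.3% in open tissue. In normal dams SoxB made up 18.2% and 22.6% in closed tissue, against 26.6% and 13.9% in open tissue. The share in library 13 had a 95% Wilson interval of 1.79% to 2.03%, which covers counting error only. The other 7 libraries spread from 13.9% to 26.6%, and none of their intervals reached that of library 13.

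**Figure D2:**
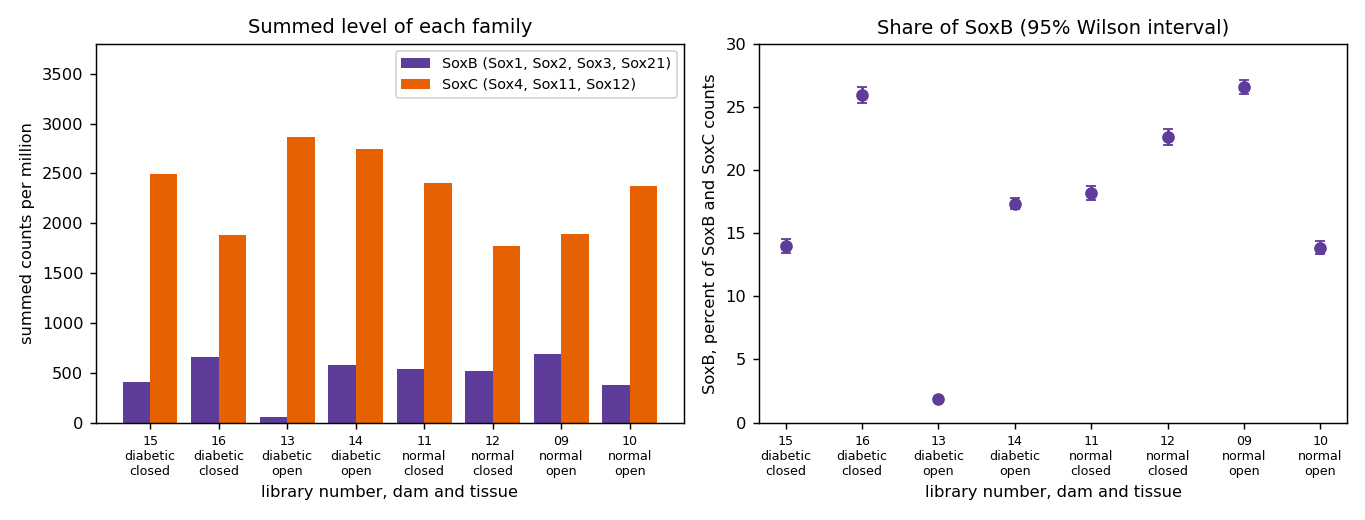
Left, summed CPM of SoxB and SoxC in each library (bars, axis from 0); right, SoxB as a percent of SoxB and SoxC counts, with 95% Wilson intervals as error bars. SoxB stands at 55.5 CPM and 1.90% in library 13, while SoxC there is the highest of the 8 at 2862 CPM.

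The first comparison set closed against open tissue over both kinds of dam. SoxB genes averaged higher in closed tissue for 3 of 4 members and SoxC genes averaged lower for all 3, and no member passed the test. Without library 13, 1 of the 4 SoxB genes had a positive log2 fold change. Sox2 averaged 409 ± 93.2 CPM in closed tissue and 321 ± 221 CPM in open tissue (mean ± SD, n = 4 each), and Sox1 averaged 87.9 ± 22.8 CPM in closed tissue, against 73.0 ± 39.8 CPM in open tissue. The log2 fold changes were 0.45 (SE 0.59) for Sox2 and 0.34 (SE 0.47) for Sox1 in edgeR's quasi-likelihood test, each with an adjusted p of 1.00. Without library 13 they were -0.01 (SE 0.28) and -0.04 (SE 0.29), so the direction of both turned.

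Sox3 averaged 6.39 ± 4.12 CPM in closed tissue and 1.62 ± 1.33 CPM in open tissue, and Sox21 averaged 26.5 ± 11.3 CPM in closed tissue, against 28.5 ± 22.6 CPM in open tissue (mean ± SD, n = 4 each). Their log2 fold changes were 1.87 (SE 1.5) and -0.07 (SE 0.63), or 1.58 and -0.36 without library 13. The value of Sox3 was the largest of the 7 and also the least precise, and it became 3.64 (SE 1.66) without library 10. Among the SoxC genes, Sox11 averaged 2034 ± 372 CPM in closed tissue and 2352 ± 415 CPM in open tissue, a log2 fold change of -0.15 (SE 0.18). Sox4 averaged 33.6 ± 14.4 CPM in closed tissue, against 36.8 ± 18.5 CPM in open tissue, with a log2 fold change of -0.11 (SE 0.43). Sox12 averaged 71.8 ± 16.5 CPM in closed tissue, against 78.5 ± 20.3 CPM in open tissue, with a log2 fold change of -0.08 (SE 0.28).

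Called members, with a Benjamini-Hochberg adjusted p below 0.05, numbered 0 of 7 by edgeR, which called 0% of 11779 genes tested. At an unadjusted p below 0.05 edgeR had 0 members and 3.32% of all genes. DESeq2 called 0 members and 0.0764% of all genes, and limma-voom called 0 members and 0% of genes, with 0 members and 5.23% of genes at an unadjusted p below 0.05. No member had closed libraries all above or all below the open ones, which was so for 1.68% and 1.07% of genes. The median log2 fold change was 0.40 for SoxB and -0.11 for SoxC, beside 0.07 for all genes tested. Without library 13 these medians were -0.03, -0.11 and 0.10.

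The second comparison set diabetic against normal dams over both tissues. All 3 SoxC genes averaged higher in diabetic dams, most of all Sox4, while Sox1 and Sox2 averaged lower, and no member passed the test. Sox4 averaged 46.1 ± 6.28 CPM in diabetic dams and 24.3 ± 14.2 CPM in normal dams (SD, n = 4 each). Its log2 fold change was 0.93 (SE 0.43), with an unadjusted p of 0.0541 and an adjusted p of 0.999 by edgeR. The estimate ranged from 0.67 without library 09 to 1.49 without library 10, and was 0.90 without library 13. With a term for libraries holding Xist it was 1.53 (SE 0.51, unadjusted p = 0.0139, adjusted p = 0.978 by edgeR). An unadjusted p of 0.0110 was found with limma-voom, where the adjusted p was 0.606. Sox11 averaged 2372 ± 434 CPM in diabetic and 2014 ± 322 CPM in normal dams, a log2 fold change of 0.21 (SE 0.18), and Sox12 averaged 78.0 ± 14.2 CPM in diabetic and 72.3 ± 22.2 CPM in normal dams, a log2 fold change of 0.10 (SE 0.28).

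Sox2 averaged 319 ± 213 CPM in diabetic dams and 411 ± 108 CPM in normal dams, and Sox1 averaged 71.3 ± 42.6 CPM in diabetic and 89.7 ± 14.7 CPM in normal dams (SD, n = 4 each). The log2 fold changes were -0.46 (SE 0.59) and -0.38 (SE 0.47), and without library 13 they were 0.01 (SE 0.28) and 0.01 (SE 0.29). Library 13 thus decided the direction of both. Sox3 averaged 5.54 ± 4.63 CPM in diabetic and 2.47 ± 2.49 CPM in normal dams, with a log2 fold change of 0.79 (SE 1.47) that became 2.57 without library 10 and 0.35 without library 11. With a term for libraries holding Xist, both of normal dams, it was 3.87 (SE 1.90). Sox21 averaged 28.3 ± 22.6 CPM in diabetic and 26.7 ± 11.3 CPM in normal dams, with a log2 fold change of 0.05 (SE 0.63), or 0.35 without library 13.

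In this comparison too edgeR called 0 of 7 members and 0% of all genes, with 0 members and 4.55% of genes at an unadjusted p below 0.05. DESeq2 called 0 members and 0.314% of genes, and limma-voom 0 members with 1, Sox4, at an unadjusted p below 0.05, as were 7.22% of genes by that tool. No member had separate groups, against 2.48% of genes with every diabetic library higher and 1.15% with every one lower. The median log2 fold change was -0.16 for SoxB and 0.21 for SoxC, beside 0.04 for all genes tested. Without library 13 these medians were 0.18, 0.23 and -0.0035.

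**Figure D3:**
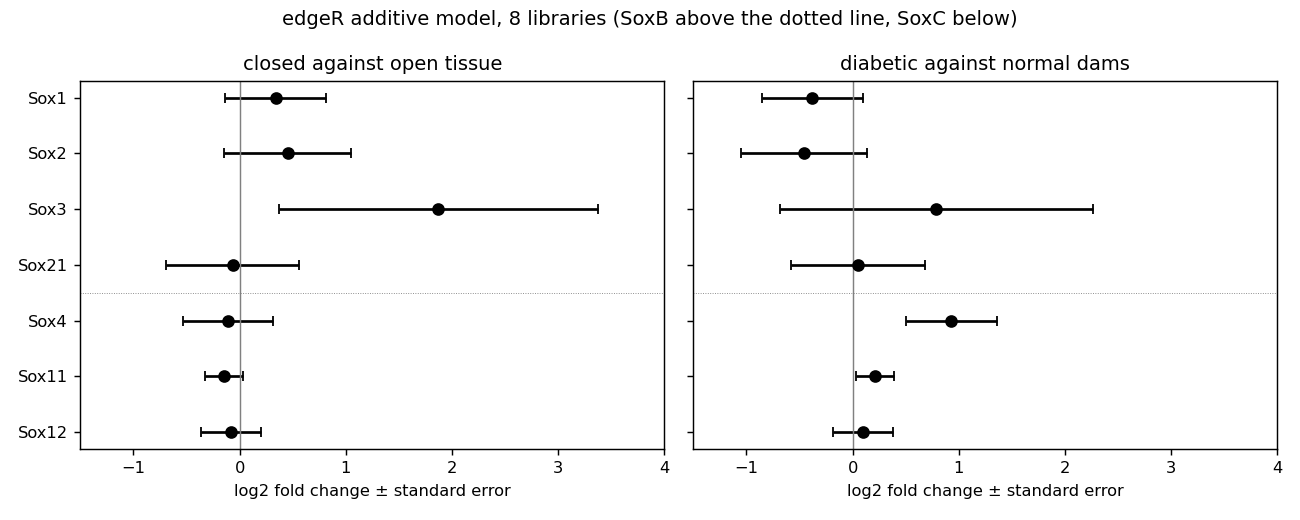
Log2 fold changes from edgeR's additive model (points, horizontal axis) with their standard errors (bars), for closed against open tissue on the left and diabetic against normal dams on the right. For closed against open tissue the SoxC genes lie slightly below 0 (-0.15 to -0.08) and Sox3 has the widest bar (SE 1.5); for diabetic against normal dams Sox4 lies farthest from 0 at 0.93.

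Within diabetic dams, closed against open tissue gave a log2 fold change of 0.92 (SE 0.85, edgeR adjusted p = 1) for Sox2, which was 0.03 without library 13. Without library 14 it was 3.81, where library 13 is the only open library and is assumed to vary as the other groups do. For Sox11 it was -0.33 (SE 0.26, adjusted p = 1). Sox3 had both closed libraries above both open ones (18.5% of genes did), and Sox11 had both below (15.3% of genes did). By edgeR 0 of 7 members and 0% of genes were called, with 0 members and 2.78% of genes at an unadjusted p below 0.05. DESeq2 called 0 members and 0.391% of genes, while limma-voom called 0 members and 0.00849% of genes and had 2 members, Sox1 and Sox2, at an unadjusted p below 0.05, as were 5.2% of genes by that tool.

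Within normal dams, closed against open tissue gave log2 fold changes of -0.02 (SE 0.84) for Sox2, 0.03 (SE 0.26) for Sox11 and -0.23 (SE 0.64) for Sox4. No member had separate groups, which was so for 14.9% of genes with closed tissue higher and 13.6% with it lower. By edgeR 0 of 7 members and 0% of genes were called, with 0 members and 3.4% of genes at an unadjusted p below 0.05. By DESeq2 0 members and 0.229% of genes were called, and by limma-voom 0 members, with 0 members and 3.88% of genes at an unadjusted p below 0.05.

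Between diabetic and normal dams, open tissue gave a log2 fold change of -0.92 (SE 0.85, adjusted p = 0.832 by edgeR) for Sox2. It was -0.03 without library 13 and -3.81 without library 14, where library 13 is the only open library of diabetic dams. Sox11 was higher in both diabetic open libraries than in both normal ones, as were 17.4% of genes, with a log2 fold change of 0.39 (SE 0.26, adjusted p = 0.698). By edgeR 0 of 7 members and 0% of genes were called, with 0 members and 7.22% of genes at an unadjusted p below 0.05. DESeq2 called 0 members and 1.66% of genes, and limma-voom called 0 members and 0.00849% of genes and had 3 members, Sox1, Sox2 and Sox4, at an unadjusted p below 0.05, as were 11% of genes by that tool.

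In closed tissue, diabetic against normal dams gave a log2 fold change of 1.05 (SE 0.64, unadjusted p = 0.135, adjusted p = 1 by edgeR) for Sox4, and 1.07 without library 13. Sox4 and Sox3 had both diabetic libraries above both normal ones, which was so for 18.7% of genes. By edgeR 0 of 7 members and 0% of genes were called, with 0 members and 1.17% of genes at an unadjusted p below 0.05. DESeq2 called 0 members and 0.017% of genes, and limma-voom 0 members, with 0 members and 1.58% of genes at an unadjusted p below 0.05.

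The difference between the tissue contrasts of diabetic and normal dams was tested as an interaction. For Sox2 it was 0.94 on the log2 scale (SE 1.20, adjusted p = 1.00 by edgeR), and 0.07 without library 13. For Sox4 it was 0.24 (SE 0.90), and for Sox11 -0.36 (SE 0.37). By edgeR 0 of 7 members and 0% of genes were called, with 0 members and 3.74% of genes at an unadjusted p below 0.05. By DESeq2 0 members and 0.144% of genes were called, and by limma-voom 0 members and 0.00849% of genes, with 0 members and 3.93% of genes at an unadjusted p below 0.05.

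The ratio of summed SoxB to summed SoxC counts needs no scaling to the library total. Its mean log2 value was -2.02 ± 0.48 in closed tissue and -3.01 ± 1.85 in open tissue (SD, n = 4 each), a difference of 0.99 that became 0.10 without library 13. It was -3.02 ± 1.84 in diabetic dams and -2.01 ± 0.51 in normal dams, a difference of -1.01 that became -0.12 without library 13. Both differences of the summed ratio were smaller than the spread within open tissue or within diabetic dams, and library 13 decided the size of both. Taking Sox2 out of the SoxB sum gave 0.71 and -0.68, or 0.046 and -0.012 without library 13. Taking Sox11 out of the SoxC sum gave 0.89 and -1.19, or 0.056 and -0.41 without library 13. The mean log2 CPM of each family, in which each member weighs the same, gave 1.01 and -0.58 in place of the sums. Without library 13 it gave 0.44 and 0.064, so part of the tissue difference stayed and the sign for the dams turned.

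The precision of these contrasts differed by gene. The biological coefficient of variation that edgeR fitted was 23.3% for Sox11 and 32.3% for Sox12, and it was 45.4% for Sox4, 48.2% for Sox1, 57.2% for Sox2, 62.5% for Sox21 and 128% for Sox3. A change of a given size was thus most detectable in Sox11 and least in Sox3.

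How alike 2 genes were was measured as the root mean square difference of their centred log2 levels over the 8 libraries, where 0 is an identical course. Sox1 and Sox2 differed by 0.44, and 35 of 8071 genes were closer to Sox1 than Sox2 was. Without library 13 they differed by 0.22, with 127 genes closer. Sox2 and Sox11 differed by 1.43, and by 0.50 without library 13. Sox11 and Sox12 differed by 0.43, and by 0.40 without that library. Sox4 was far from Sox2, at 1.77 with library 13 and 1.01 without it. The points of these measures share their libraries, so they describe these 8 libraries and carry no test.

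Among 8066 other genes with a mean of at least 50 counts, the closest to Sox2 were 2810021B07Rik (0.36), Hes5 (0.37), Doc2a (0.41) and Cpn1 (0.42). Hes5, a Notch effector that holds neural cells in the progenitor state, had 13.9 CPM in library 13 and 89.6 to 158 CPM in the others. Doc2a had 9.13 CPM there and 42.6 to 108 CPM elsewhere. Without library 13 the closest genes were Cisd1 (0.13), Gng12 (0.14), Osgin2 (0.14) and Fam168b (0.15), and 819 genes lay closer to Sox2 than Hes5 did. The closest to Sox11 were Selk (0.08), Ipmk (0.10), Smap2 (0.11) and Ahsa2 (0.13), and 3 of these 4 were also among the closest 4 without library 13, with Shfm1 (0.06) as the nearest. The neighbours of Sox2 thus depended on library 13 and those of Sox11 mostly did not.

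Other genes of neural progenitors came from a list of 22 genes with the partners of SoxB factors, of which 20 had a count and 19 were tested. None passed the test in either direction in closed against open tissue or in diabetic against normal dams. In closed against open tissue 14 had a positive and 5 a negative log2 fold change (median 0.22, beside 0.07 and 55.5% positive over all genes). In diabetic against normal dams 5 were positive and 14 negative (median -0.16, beside 0.04 and 52.7% positive over all genes). Without library 13, 20 were tested: 11 were positive and 9 negative in closed against open tissue, and 7 positive and 13 negative in diabetic against normal dams. The most abundant were Lin28a, Lin28b and Gli2. Lin28a, an RNA-binding protein of early progenitors, had 1566 CPM in library 13 and 1613 to 2424 CPM in the others. Lin28b had 378 CPM in library 13 and 297 to 405 CPM in the others, and Gli2, a transcription factor of the Hedgehog pathway, had 284 CPM there and 209 to 400 CPM in the others. These 3 genes thus did not share the gap that Sox2 showed in library 13.

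Library 13 was the lowest of the 8 for 7 of the 18 progenitor genes with a mean of at least 10 counts and the highest for none, beside 10.35% and 17.85% of all genes. Library 14, of the same group, was the lowest for 5 of the 18 and the highest for 2. Library 11 was the lowest for 4 and the highest for 3. Over all genes library 14 was the lowest for 13.74% and library 11 for 10.58%. Pax6, Hes3, Nes, Hes1, Cdh2, Otx2 and Gbx2 were picked with their values in view. Pax6, a factor of the neural tube's ventral and intermediate progenitors, had 4.92 CPM in library 13 and 29.6 to 62.9 CPM in the others. Hes3, a relative of Hes5, had 3.18 CPM there and 28.3 to 73.6 CPM in the others. Nes, an intermediate filament protein of neural progenitors, had 37.8 CPM there and 85.3 to 185 CPM in the others. Other members of the list were not low there: Hes1 had 25 CPM in library 13 and 6.69 to 56.8 CPM in the others, and Cdh2 had 74.4 CPM in library 13 and 31.4 to 106 CPM in the others. Otx2, a factor of forebrain and midbrain, was at 0 in all 8 libraries, and Gbx2, a factor of the anterior hindbrain that is also expressed at more posterior levels early on, had 18.0 to 68.4 CPM.

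**Figure D4:**
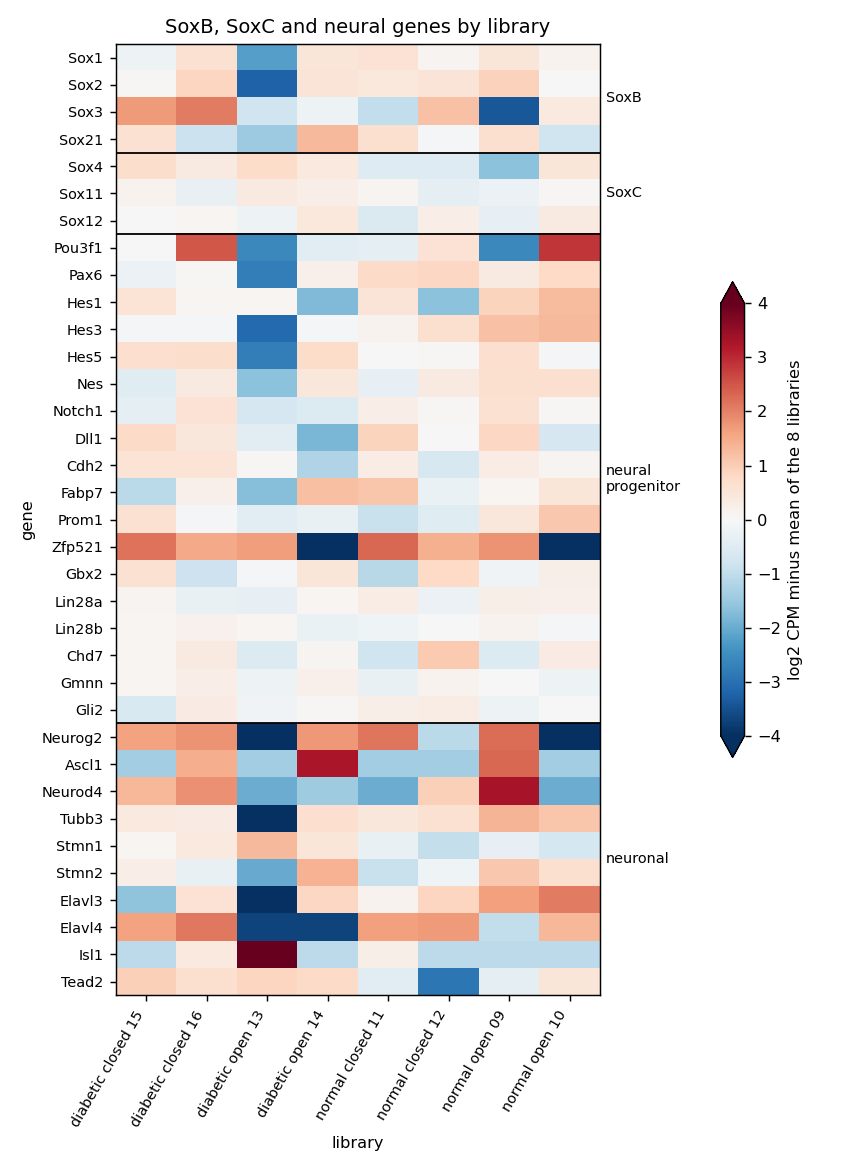
Log2 CPM of each gene minus its mean over the 8 libraries (colour, ends marking values beyond 4 in either direction), with genes as rows in 4 blocks and libraries as columns. Sox1, Sox2, Pax6, Hes3, Hes5 and Nes share a blue column at library 13, while Hes1, Cdh2, Sox11, Lin28a and Lin28b are pale there.

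Genes of neuronal differentiation came from a list of 18 genes with targets of SoxC factors, of which 15 had a count and 10 were tested. None passed in either direction, and 4 were positive and 6 negative in both comparisons (medians -0.46 for closed against open tissue and -0.49 for diabetic against normal dams). Without library 13, 11 were tested, and the medians were -0.79 and 0.43, so the sign for the dams turned. The most abundant were Tead2, Stmn1 and Stmn2. Tead2, a transcription factor of the Hippo pathway and a known target of SoxC in mouse, had 189, 153, 178 and 167 CPM in libraries 15, 16, 13 and 14 of diabetic dams. In libraries 11, 12, 09 and 10 of normal dams it had 71.1, 13, 76.5 and 138 CPM. All diabetic libraries lay above all normal ones, as was so for 2.48% of genes, and the log2 fold change was 1.34 (SE 0.48, unadjusted p = 0.0169, adjusted p = 0.999 by edgeR).

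Stmn1, a regulator of microtubules abundant in neural cells, had 106, 130, 247 and 139 CPM in libraries 15, 16, 13 and 14 of diabetic dams. In libraries 11, 12, 09 and 10 of normal dams it had 81.4, 51.8, 80.0 and 61.6 CPM. These groups were also separate, with a log2 fold change of 1.12 (SE 0.28, unadjusted p = 0.00217, adjusted p = 0.999 by edgeR). Stmn2, its neuronal relative, had 20.6, 14, 4.02 and 45.4 CPM in diabetic dams and 9.08, 15.1, 36.7 and 26.8 CPM in normal dams in the same order, and the groups overlapped. Tubb3, a tubulin of neurons, had 0.12 CPM in library 13 and 13.4 to 27.6 CPM in the others, and Neurog2, a proneural factor, was at 0 in libraries 13 and 10. Isl1, a factor of motor neurons and of heart progenitors, had 12.4 CPM in library 13 and at most 0.419 CPM in the others. Tubb3, Neurog2 and Isl1 were picked with their values in view, and library 13 was the lowest for 3 and the highest for 2 of the list's 10 genes with a mean of at least 10 counts. Summed over the list, the levels of diabetic dams (358 to 442 CPM) lay above those of normal dams (120 to 289 CPM), and Tead2 and Stmn1 carried this gap. Without these 2 genes the sums were 16.5 to 93.0 CPM in diabetic dams and 55.2 to 117 CPM in normal dams, which overlap.

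Among the 13 other Sox genes, 10 had a count, 7 were tested and none passed. Sox7, a SoxF factor of endothelium and early endoderm, had 142 CPM in library 13 and 5.36 to 35.0 CPM in the others. Sox17 and Sox18, the other SoxF genes, were also highest in library 13, at 15.7 and 34.5 CPM. Sox9, a SoxE factor of neural crest and chondrogenic mesoderm, had 75.8 and 75.1 CPM in closed tissue of diabetic dams, against 18.0 and 25.1 CPM in their open tissue. In normal dams it had 115 and 67.5 CPM in closed tissue, against 38.0 and 67.2 CPM in open tissue. Every closed library lay above every open one, as for 1.68% of genes, and the log2 fold change was 1.35 (SE 0.34, unadjusted p = 0.00213, adjusted p = 1.00 by edgeR). Sox6, Sox10 and Sox13 were at 0 in 1 or more libraries and reached at most 9.78 CPM.

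Markers of other tissues moved with the low SoxB levels of library 13, and their part in the result was not tested. All 12 mesoderm and mesenchyme markers had a count. Of the 11 with a mean of at least 10 counts, 8 were highest in library 13, beside 17.85% of all such genes. Their summed level was 1966 CPM there and 308 to 990 CPM in the other diabetic libraries, against 161 to 490 CPM in normal dams. Pdgfra, a receptor of mesenchymal cells, had 475 CPM in library 13 and 29.9 to 158 CPM in the others. Of the 6 endothelium markers with a mean of at least 10 counts, 6 were highest in library 13, beside the same 17.85%. All 10 endothelium markers summed to 318 CPM there and to 63.5 to 140 CPM in the other diabetic libraries, against 26.4 to 59.6 CPM in normal dams. Heart and endoderm markers summed to 186 CPM in library 13 and to 1.5 to 17.1 CPM in the others, with Nkx2-5 and Tnnt2 at 0 in all 8 libraries.

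Primitive blood markers summed to 924 CPM in library 13 and to 1010 CPM in library 14, where Sox2 was not low, with Hbb-y and Hemgn at 0 throughout. They summed to 4.4 and 210 CPM in diabetic closed tissue, and to at most 63.3 CPM in normal dams. Surface ectoderm markers summed to 329 CPM in library 13 and to 69.1 to 292 CPM in the others, with overlap of all groups. Of these 9 markers, 2 were highest in library 13, Krt18 and Krt8, and Krt18 gave 197 CPM of the sum there. Trp63 was the 1 marker lowest in library 13, at 0, with 2.27 to 8.82 CPM in the others. The sum in library 13 thus rested mainly on Krt18 and Krt8 and does not show a rise of the list as a whole. Neural crest markers summed to 61.7 CPM in library 13 and to 3.2 to 28.8 CPM in the others. Snai2, 1 of the 4, which mesenchyme also expresses, gave 56.6 CPM of the sum in library 13. Foxd3 was at 0 in every open library (13, 14, 09 and 10), and Tcfap2b was at 0 in libraries 13, 14 and 12. Notochord and floor plate markers summed to 8.0 CPM in library 13 and to 12.4 to 55.4 CPM in the others, with Noto at 0. Mesoderm markers, like Sox4, had positive log2 fold changes in diabetic against normal dams. All 11 tested were positive (median 1.80, beside 52.7% of all genes positive), and none passed the test. Without library 13, 10 of 11 were positive (median 1.09). By library they did not always follow Sox4. In library 14 they summed to 308 CPM, within the 161 to 490 CPM of normal dams. Sox4 there was 41.1 CPM, against 21.7, 21.8, 9.87 and 43.9 CPM in normal dams. The part of these markers in the level of Sox4 was not tested.

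**Figure D5:**
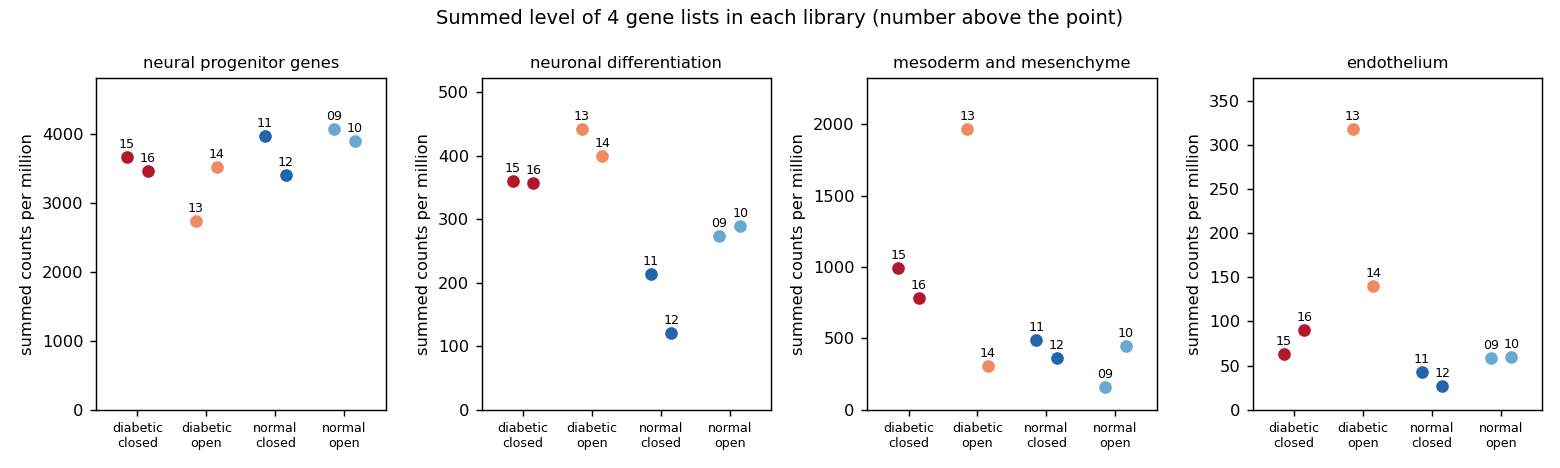
Summed CPM (vertical axes, from 0) of 4 gene lists in each library, with the library number above its point. Library 13 is lowest for neural progenitor genes (2738 CPM, 3414 to 4079 CPM in the others) and highest for mesoderm and mesenchyme (1966 CPM) and endothelium (318 CPM); the neuronal list is higher in all diabetic libraries, but not without Tead2 and Stmn1.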

How the data were processed

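Laser-dissected neural tube gave 8 SOLiD SAGE libraries, each from 7 ng of total RNA per the labels' protocols. The authors deposited 1 table of tag counts per gene symbol for each library, with no normalization. Per the submitters' processing notes, counting used build mm9; its aligner, annotation, strand use and treatment of tags found in several genes are not given in the sources used. Totals ran from 5041586 to 16655583 counts. Of 26608 genes listed, 15162 were counted in 1 library or more, and 0 rows lacked a gene name.

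Groups were taken from the labels. CPM were computed here as the count divided by the library total and scaled to 1000000. Tests used R 4.3.3 with edgeR 4.0.16: filterByExpr (minimum count 10, minimum total 15) left 11779 genes, scaling was by TMM, and the quasi-likelihood F test was adjusted by Benjamini-Hochberg over all genes tested, with a threshold of 0.05. Region and dam were fitted in an additive model of 8 libraries, and simple contrasts and the interaction in a model of the 4 groups. All 7 members passed the filter. Standard errors are those implied by the F statistic. DESeq2 1.42.0, limma 3.58.1 (voom), RLE factors, library totals, no filter, a term for Xist kind and leaving out each library were alternatives. The script was tested on simulated counts.

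Likeness of genes used log2 CPM with a prior count of 2. Named genes were the 7 members, the 3 most abundant genes of each neural list, the other Sox genes with a mean of at least 10 counts, the 4 genes most alike to Sox2 and to Sox11, and Xist and Ddx3y. Pax6, Hes3, Nes, Hes1, Cdh2, Otx2, Gbx2, Tubb3, Neurog2, Isl1 and Snai2 fall outside this rule and were picked with their values in view. So were Hba-x, Krt18, Krt8, Trp63, Foxd3 and Tcfap2b. Sox2ot is given as an overlapping gene. The most abundant genes of the other tissue lists are given only in their sums, except Pdgfra, Hba-x, Krt18, Krt8, Snai2 and Tcfap2b. Members and lists were chosen with earlier results of these data known. Values over 7 libraries of likeness, list sums, list medians and family ratios, and the neuronal sum without Tead2 and Stmn1, were added after seeing the data.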

Additional observations from a re-analysis of the deposited data

How the results depend on the processing

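No paired analysis was possible because no library number occurs in more than 1 group, and the labels do not say which libraries share embryos. RLE factors, library totals, DESeq2, limma-voom and no filter left 0 of 7 members called in all 7 comparisons, as did a term for Xist kind in both additive ones. Over all genes, edgeR without the filter called 29 of 15162 genes in closed against open tissue and 89 in diabetic against normal dams, DESeq2 called 9 and 37 of 11779, and the main fit 0. Both differences of the summed SoxB to SoxC ratio kept their sign when each library was left out. They ran over 0.10 to 1.51 for closed against open tissue and -1.51 to -0.12 for diabetic against normal dams. The values nearest 0 were those without library 13, and they were smaller than the spread within a group. With the mean log2 CPM of each family the dam difference was -0.58, and 0.064 without library 13. Leaving out 1 library called 0 to 1 members in closed against open tissue of diabetic dams and 0 to 1 in diabetic against normal open tissue: Sox2, without library 14. In closed against open tissue, limma-voom and the Xist term gave the opposite sign for Sox21 (0.23 and 0.0043) and Sox4 (0.081 and 0.050), and in diabetic against normal dams for Sox21 (-0.56 and -0.38). Leaving out 1 library, the log2 fold change for closed against open tissue ran over -0.042 to 0.92 (Sox1), -0.012 to 1.15 (Sox2), -0.36 to 0.76 (Sox21), -0.38 to 0.43 (Sox4) and -0.26 to 0.068 (Sox12). For diabetic against normal dams it ran over -0.95 to 0.0072 (Sox1), -1.15 to 0.011 (Sox2), -0.78 to 0.35 (Sox21) and -0.046 to 0.29 (Sox12). The cause of these turns was not tested. With 2 libraries a group, standard errors of the members ran from 0.18 (Sox11) to 1.5 (Sox3) on the log2 scale in the additive model, beside a median of 0.67 over all genes, and differences near a gene's own standard error are not resolved here.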
